A study of Arabidopsis thaliana with 48 samples.

Results

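The response of untreated, systemic leaves to 8 min of excess light on another leaf of the same plant was examined in Col (Columbia-0, WT) Arabidopsis thaliana. Members were taken by their labels, as the 3 libraries of WT systemic leaves at 8 min and the 3 libraries of WT systemic leaves at 0 min, together 6 of the 48 libraries of the series. At 8 min a single leaf of each plant, the local leaf, had been under 2000 µmol photons m-2 s-1 for that time, while at 0 min no leaf had been illuminated. Systemic leaves at 2 and 4 min (3 libraries each), WT local leaves and systemic leaves of the rbohD knockout (3 libraries at each time) were used only to place these values. All plants were 4 to 5 weeks old and had grown at 23 °C with 8 h of light a day at 50 µmol m-2 s-1. Leaves of many plants were pooled for every replicate, and local and systemic leaves came from the same plants. Plants left in growth light for 8 min and then sampled were not analysed here, so light on the local leaf, handling and elapsed time cannot be told apart.

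Plants pass news of a local stress to distant leaves within minutes, through coupled waves of calcium, electrical potential and reactive oxygen species. RBOHD, an NADPH oxidase of the plasma membrane, makes the superoxide on which the reactive oxygen wave depends. Leaves that receive such signals are known to change the transcript levels of stress genes before any stress reaches them, a state called systemic acquired acclimation, and a slower and partly salicylic acid-dependent state, systemic acquired resistance, follows infection.

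The 8 min libraries held 24600407, 21130334 and 26757890 reads assigned to genes, and the 0 min libraries 22940429, 24719829 and 25988992. The leaf label was borne out by its markers, since CAB1, RBCS1A and the other mesophyll genes were abundant in all 6 libraries, whereas the root gene WOX5, the seed gene SESA1, the meristem gene STM and the late senescence gene SAG12 had no reads. Other markers on these lists had reads: the flower gene AP3 at most 2.15 normalized counts in a library, the cell division genes CYCB1;1 (17.8 to 25.4 at 8 min, against 11.8 to 15.7 at 0 min) and SYP111 (43.4 to 65.2 at 8 min, against 56.4 to 75.3 at 0 min), neither past the threshold, and the senescence gene SAG13, which rose. PYK10, a root-enriched beta-glucosidase, had 49.6, 64.5 and 62.7 normalized counts at 8 min, against 303, 27.5 and 46.8 at 0 min, so that replicate 1 at 0 min stood apart. The same library differed most from its replicates, at a chi-square of 4.80 and 4.96 per degree of freedom, against 2.80 for the other 0 min pair and 1.52 to 1.84 for the 8 min pairs. Some values are given below also without it. Fewer cells of a type and less RNA per cell cannot be told apart in such bulk samples.

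In systemic leaves at 8 min rises reached larger sizes than falls. Of 18140 genes tested, 21.8% were raised and 22.6% lowered at a Benjamini-Hochberg adjusted p below 0.05 (limma), with a median change of 1.40-fold among the raised and 1.23-fold among the lowered genes. Rises of at least 2-fold were found for 960 genes (5.29% of those tested) and falls of that size for 68 (0.375%). At least 4-fold rises numbered 363 against 9 falls, and at least 8-fold rises 143 against 4. For 26.4% of the genes all 3 libraries at 8 min lay above those at 0 min and for 27.9% below. Without replicate 1 of 0 min, 955 genes were raised and 70 lowered at least 2-fold. The median change over all genes was -0.01 on the log2 scale with the deposited scaling and 0.11 when every library was rescaled to one total, and the share of raised genes among the called ones then was 74.2% instead of 49.1%. Raised genes numbered 3962 as deposited and 6142 after rescaling, and lowered genes 4105 and 2140. Rises of at least 2-fold numbered 1119 after rescaling and falls of that size 46. Counts of small rises and small falls thus both depended on the scaling, and list counts under both scalings are given below.

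SAG13, a short-chain dehydrogenase induced in senescing and infected leaves, had 309.8, 341.7 and 272.7 normalized counts at 8 min, against 31.2, 10.8 and 3.82 at 0 min (log2 change 4.65 ± 0.39, SE, adjusted p = 1.6e-09, limma). The 8 min libraries lay close together and far above a scattered 0 min group, and without replicate 1 of 0 min the log2 change was 5.35. CHI (AT2G43570), a chitinase, had 479.9, 539.5 and 459 counts at 8 min, against 35.5, 23.58 and 21.98 at 0 min (log2 change 4.17 ± 0.17). AT3G28510, an AAA-type P-loop nucleoside triphosphate hydrolase, had 679, 719 and 650.3 counts at 8 min, against 50.6, 22.6 and 39.2 at 0 min (4.22 ± 0.18).

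The most abundant of the 10 largest rises was PCR1, a small membrane protein that confers cadmium resistance, with 6299, 6205 and 6255 counts at 8 min, against 399, 301 and 451 at 0 min (log2 change 4.04 ± 0.10, adjusted p = 4.5e-18, limma). TCH4, a touch-inducible xyloglucan endotransglucosylase that remodels the cell wall, had 1591, 1650 and 1527 counts at 8 min, against 62.4, 143.5 and 99.4 at 0 min (4.03 ± 0.17). ARD3, an acireductone dioxygenase of the methionine salvage cycle, had 407, 358 and 335 counts at 8 min, against 49.5, 14.7 and 13.4 at 0 min (4.02 ± 0.33, or 4.61 without replicate 1 of 0 min). AT3G21080, annotated as an ABC transporter-like protein, completed the group with a log2 change of 4.06 ± 0.29. The other 3 were PR1, the classical marker of salicylic acid signalling (5.70 ± 0.23), cwINV6, a fructan exohydrolase (5.35 ± 0.49, or 4.38 without replicate 1 of 0 min), and PHI-1, a phosphate-responsive protein (4.99 ± 0.44, or 4.10 without replicate 1 of 0 min).

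**Figure D1:**
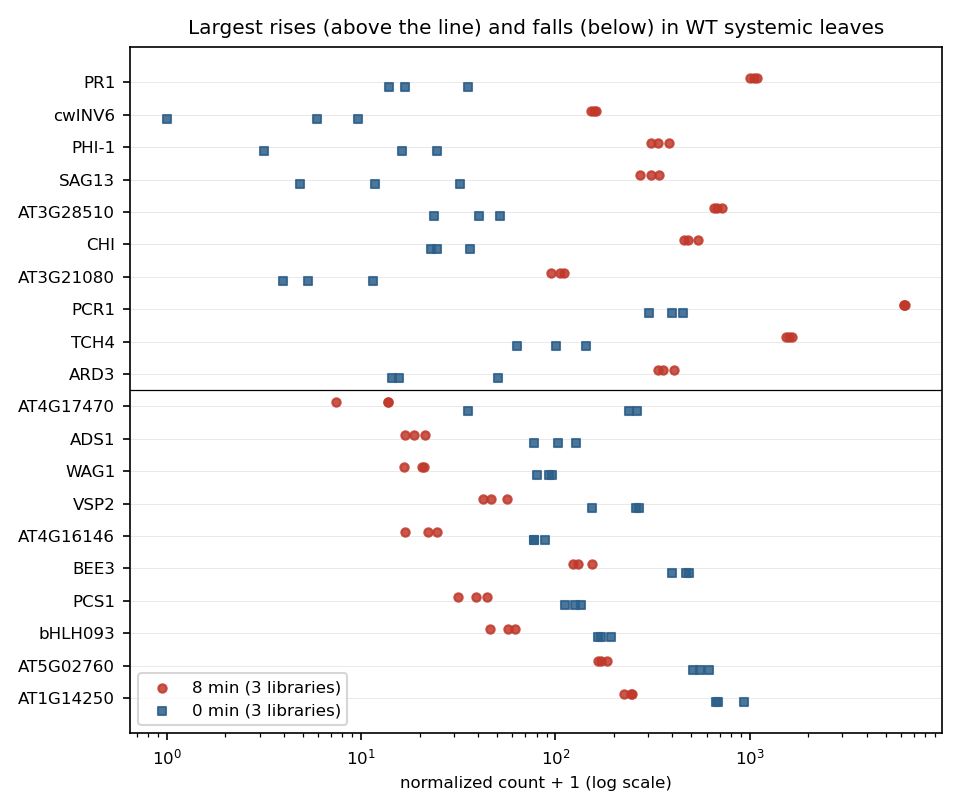
Normalized count + 1 (log axis) of the 10 largest rises, above the line, and the 10 largest falls, below it, in WT systemic leaves; each red circle is an 8 min library and each blue square a 0 min library. The groups do not overlap for any of the 20 genes, which the naming rule required, and PCR1 reaches 6205 to 6299 counts at 8 min.

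The largest falls were smaller than the largest rises. ADS1 (AT1G06080), a delta 9 acyl-lipid desaturase, had 20.2, 15.9 and 17.8 counts at 8 min, against 127, 76.6 and 102.3 at 0 min (log2 change -2.42 ± 0.22, adjusted p = 6.1e-09, limma). WAG1, a protein kinase that acts on auxin transporters, had 15.6, 20.1 and 19.5 counts at 8 min, against 79.6, 91.4 and 94.6 at 0 min (-2.21 ± 0.19). Both were thus low in all 8 min libraries. AT4G17470, an alpha/beta-hydrolase, had 6.43, 12.7 and 12.7 counts at 8 min, against 34.4, 237.8 and 260.9 at 0 min, and its log2 change of -3.54 ± 0.62 was -4.48 without replicate 1 of 0 min. BEE3, a helix-loop-helix factor of brassinosteroid signalling, had 129.6, 152.3 and 122.8 counts at 8 min, against 399, 486 and 471 at 0 min (-1.74 ± 0.12). AT5G02760, a type 2C protein phosphatase, had 171, 165 and 183 counts at 8 min, against 554, 509 and 613 at 0 min (-1.68 ± 0.08), and it overlaps other annotated genes. VSP2, AT4G16146, PCS1, bHLH093 and AT1G14250 were the remaining falls, with log2 changes of -2.20 to -1.66.

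Genes of salicylic acid synthesis, perception and response rose together. All 22 tested members of the 23 listed passed the test upwards, with either scaling and with each library left out, 20 of them by at least 2-fold, and their median log2 change was 2.25. Among the genes of the pathway's regulation and synthesis, CBP60G, a calmodulin-binding transcription factor, had 1543, 1554 and 1427 counts at 8 min, against 157, 173 and 156 at 0 min (log2 change 3.21 ± 0.08). EDS16, the isochorismate synthase that starts the synthesis, had 2354, 2281 and 2186 counts at 8 min, against 621, 603 and 648 at 0 min (1.86 ± 0.06), and PBS3, which conjugates isochorismate with glutamate, had a log2 change of 3.26 ± 0.09. In all of these the 3 libraries of each time lay within a narrow band, without overlap. For ALD1, an aminotransferase that starts pipecolic acid synthesis, 80.9, 97.3 and 73.7 counts were found at 8 min, against 11.8, 0 and 1.91 at 0 min. FMO1, the monooxygenase that makes N-hydroxypipecolic acid, the mobile signal of systemic acquired resistance, had 23.0, 28.6 and 26.2 counts at 8 min, against 1.08, 0 and 0 at 0 min, at least 8.03-fold higher when set against a floor of 3 reads in a library (3.23 normalized counts), which covers counting error only.

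Receptors of the hormone changed least. NPR1, a salicylic acid receptor and coactivator, had 832, 807 and 751 counts at 8 min, against 454, 537 and 496 at 0 min (log2 change 0.69 ± 0.07), and NPR4, a related corepressor, had a log2 change of 0.59 ± 0.06. Among the response genes, BGL2, the beta-1,3-glucanase also known as PR2, had 4578, 4743 and 4520 counts at 8 min, against 390.5, 418 and 464 at 0 min (3.44 ± 0.06). PR5, a thaumatin-like protein and the member with the highest normalized counts, had 5616, 5700 and 5661 counts at 8 min, against 1659, 1827 and 2034 at 0 min (1.63 ± 0.07). Summed over the list, the 8 min libraries held 35531, 34952 and 33850 normalized counts and the 0 min libraries 7572, 7590 and 8319.

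The cysteine-rich receptor-like kinases (CRKs), a family of plasma membrane kinases with DUF26 domains outside the cell, showed a similar pattern. Of 32 tested members of 38, 26 were raised and 2 lowered (28 and 2 after rescaling), with a median log2 change of 1.58, and 20 rose by at least 2-fold. CRK13 had 369.5, 387 and 340.4 counts at 8 min, against 22.6, 24.6 and 26.8 at 0 min (log2 change 3.84 ± 0.14). CRK37 had 472, 495 and 444 counts at 8 min, against 32.3, 33.4 and 44.0 at 0 min (3.66 ± 0.15). CRK40, with the highest normalized counts of the list, had 3585, 3671 and 3475 counts at 8 min, against 1544, 1665 and 1800 at 0 min (1.10 ± 0.05), while CRK21 had 1624, 1696 and 1638 counts at 8 min, against 2293, 2216 and 2283 at 0 min (-0.45 ± 0.05). Of the 20 members that rose at least 2-fold, 19 lie on chromosome 4, as do 9 of the other 12. Many are neighbouring copies with similar sequences, so reads may have been split among them and single values are uncertain.

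Promoters of 3 members are shown because the W-box, the element bound by WRKY transcription factors, occurs in 20 of the 32 windows of the 250 bases before the annotated start. Both strands were searched for TTGACC and TTGACT. CRK37 (gene at chr4:2238370-2240921, plus strand, TAIR10.1, RefSeq annotation) has its window at chr4:2238120-2238369, CRK6 (12121369 to 12124564, plus strand) at chr4:12121119-12121368 and CRK5 (12117491 to 12120220, minus strand) at chr4:12120221-12120470. Each is printed 5′ to 3′ on the strand of its gene, with W-boxes in capitals.
CRK37: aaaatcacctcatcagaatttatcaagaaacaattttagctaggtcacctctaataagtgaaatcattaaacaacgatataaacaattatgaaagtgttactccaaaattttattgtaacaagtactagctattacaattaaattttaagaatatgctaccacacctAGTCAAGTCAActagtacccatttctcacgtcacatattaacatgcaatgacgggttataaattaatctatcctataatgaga
CRK6: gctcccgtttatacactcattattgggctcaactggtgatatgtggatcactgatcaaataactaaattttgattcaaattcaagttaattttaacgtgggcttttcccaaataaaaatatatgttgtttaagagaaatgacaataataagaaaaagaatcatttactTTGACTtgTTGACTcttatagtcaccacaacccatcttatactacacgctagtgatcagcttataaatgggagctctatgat
CRK5: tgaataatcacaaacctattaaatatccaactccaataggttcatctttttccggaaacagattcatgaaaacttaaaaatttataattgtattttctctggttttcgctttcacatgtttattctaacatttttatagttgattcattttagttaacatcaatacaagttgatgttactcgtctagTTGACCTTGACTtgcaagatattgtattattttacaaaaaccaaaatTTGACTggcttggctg
The pair in CRK37 is on the minus strand, starts at -83 and -78 and overlaps by 1 base. CRK6 has its pair at -82 and -74, and CRK5 has matches at -63, -57 and -16. W-boxes were present in 27.7% of the windows of all tested genes with a position (5003 of 18041) and in 423 of the 960 genes raised at least 2-fold (44.1%). The share did not follow the rise in every list. It was 18.2% (4 of 22) in the salicylic acid list and 35.7% (15 of 42) in the WRKY family. Of the 10 largest rises 5 had a W-box, and of the 10 largest falls 4. Among the CRKs, 14 of the 20 raised at least 2-fold and 6 of the other 12 had one. A match is a description of the letters and no measurement of binding.

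WRKY factors were raised as well, in 29 of 42 tested members of 67, with none lowered (32 and 0 after rescaling) and a median log2 change of 0.99. WRKY70, a regulator downstream of salicylic acid and the member with the highest normalized counts, had 5177, 5086 and 4948 counts at 8 min, against 1084, 1028 and 1219 at 0 min (log2 change 2.19 ± 0.06). WRKY51 had 107.6, 111.1 and 133.8 counts at 8 min, against 11.8, 3.93 and 14.3 at 0 min (3.57 ± 0.29). WRKY46 had 1037, 948 and 1010 counts at 8 min, against 119, 82.5 and 129 at 0 min (3.19 ± 0.12). The groups did not overlap for any of these 3.

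Early stress transcription factors of the zinc finger, ERF, DREB and NAC types followed. Of 29 tested members of 43, 24 were raised and none lowered (26 and 0 after rescaling), with a median log2 change of 1.58. STZ, the zinc finger repressor also known as ZAT10, had 857, 807 and 859 counts at 8 min, against 74.2, 46.2 and 47.8 at 0 min (log2 change 3.92 ± 0.12). RHL41, a zinc finger protein of the oxidative stress response also known as ZAT12, had 111.2, 114.2 and 110.1 counts at 8 min, against 9.68, 6.88 and 6.69 at 0 min (3.71 ± 0.23). CBF2, an activator of cold-response genes, had 121.3, 126.9 and 132.9 counts at 8 min, against 10.8, 8.84 and 11.5 at 0 min (3.50 ± 0.17), with the reservation that its tandem copies are near-identical. KIN1 and COR15A, which carry the DRE element that CBF proteins bind, were not raised with it and are described with the abscisic acid genes.

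The windows of CBF2 and PHI-1 are shown since each holds several stress elements. CBF2 (chr4:13015250-13016235, minus strand) has its window at chr4:13016236-13016485 and PHI-1 (chr1:12851983-12853235, plus strand) at chr1:12851733-12851982, both in TAIR10.1 and printed 5′ to 3′ on the strand of the gene with all matches in capitals.
CBF2: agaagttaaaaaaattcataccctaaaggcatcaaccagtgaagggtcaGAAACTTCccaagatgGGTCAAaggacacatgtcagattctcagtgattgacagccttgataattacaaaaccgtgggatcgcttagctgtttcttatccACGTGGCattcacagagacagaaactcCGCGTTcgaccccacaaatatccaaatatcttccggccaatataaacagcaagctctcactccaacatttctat
PHI-1: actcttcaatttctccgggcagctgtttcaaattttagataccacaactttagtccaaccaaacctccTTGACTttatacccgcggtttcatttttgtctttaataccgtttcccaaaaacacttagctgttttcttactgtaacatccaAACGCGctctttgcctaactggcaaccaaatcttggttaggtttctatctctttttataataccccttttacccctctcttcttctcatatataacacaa
In CBF2 these are a heat shock element (GAANNTTC) at -201, a W-box on the minus strand at -185, an abscisic acid response element (ACGTGTC or ACGTGGC) at -101 and a rapid stress response element (CGCGTT) at -74. PHI-1 has a W-box at -182 and a rapid stress response element on the minus strand at -100. Both strands were searched for each, and no match overlapped another. Of all 18041 windows, 9.46% held the heat shock element, 7.49% the abscisic acid response element and 2.82% the rapid stress response element. Of the 960 genes raised at least 2-fold, 165 (17.2%) held the heat shock element, 57 (5.94%) the abscisic acid response element and 62 (6.46%) the rapid stress response element. The GCC box (GCCGCC), present in 1.98% of all windows and in 20 of the 960 (2.08%), was not found in these 5.

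Of 22 tested genes of calcium sensing and transport, 14 were raised and 1 lowered (18 and 1 after rescaling), with a median log2 change of 0.81. CML37, a calmodulin-like sensor, had 122.3, 96.3 and 110.9 counts at 8 min, against 11.8, 5.90 and 7.65 at 0 min (log2 change 3.59 ± 0.24), and TCH3, another touch-inducible calmodulin-like protein, had 3911, 3655 and 3531 counts at 8 min, against 796, 894 and 840.1 at 0 min (2.13 ± 0.06). CAM9, a calmodulin-like protein with the highest counts of the list, had 5090, 4968 and 4986 counts at 8 min, against 4157, 4136 and 4163 at 0 min (0.27 ± 0.04). CML38 had at most 3 reads in each 0 min library and was at least 9.80-fold higher at 8 min than that floor. CAX3, a vacuolar calcium exchanger, had 309.8, 353.3 and 310.8 counts at 8 min, against 8.61, 33.4 and 27.7 at 0 min (3.94 ± 0.28, or 3.37 without replicate 1 of 0 min). The channels GLR3.3 and GLR3.6, which carry the wound-induced electrical signal, had log2 changes of 0.08 and -0.12, and the vacuolar channel TPC1 one of 0.06, none past the threshold. ANNAT4, an annexin, was the lowered member, with 663, 626 and 607 counts at 8 min, against 1416, 1686 and 1806 at 0 min (-1.36 ± 0.07).

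The enzymes of reactive oxygen species moved little and in both directions. Of 20 tested, 7 were raised (35%) and 8 lowered (40%), against 21.8% and 22.6% of all genes, and none by 2-fold. After rescaling 8 were raised and 6 lowered. RBOHD itself had 1961, 1960 and 1922 counts at 8 min, against 1381, 1307 and 1244 at 0 min (log2 change 0.57 ± 0.05). CAT3 (AT1G20620), a catalase, had a log2 change of 0.60 ± 0.05, whereas the more abundant CAT2 (AT4G35090) had 92836, 89314 and 92088 counts at 8 min, against 93231, 92903 and 98920 at 0 min, which was not past the threshold (-0.06 ± 0.06). FSD1, an iron superoxide dismutase of the chloroplast, had 2172, 2369 and 2417 counts at 8 min, against 2523, 5162 and 5385 at 0 min. Its log2 change of -0.83 ± 0.16 was -1.19 without replicate 1 of 0 min, whose value was near those of the 8 min libraries.

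Heat shock factors and chaperones were raised in 21 of 29 tested genes and lowered in none (24 and 0 after rescaling), but by a median log2 change of 0.44 only. BIP3, a chaperone of the endoplasmic reticulum induced by unfolded proteins, had 590.2, 569 and 549 counts at 8 min, against 117.3, 52.1 and 52.6 at 0 min (log2 change 3.04 ± 0.20, or 3.42 without replicate 1 of 0 min). HSFA8, a heat shock factor, had 226, 209 and 223 counts at 8 min, against 31.2, 29.5 and 32.5 at 0 min (2.78 ± 0.11). HSP70, the cytosolic chaperone with the highest normalized counts, had 7627, 7092 and 7380 counts at 8 min, against 8102, 5946 and 6121 at 0 min, and its log2 change of 0.15 ± 0.08 missed the threshold (adjusted p = 0.17, limma). Rescaling or leaving out replicate 1 of 0 min brought it past, at 0.27 and 0.29. The groups overlapped here because of that replicate.

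**Figure D2:**
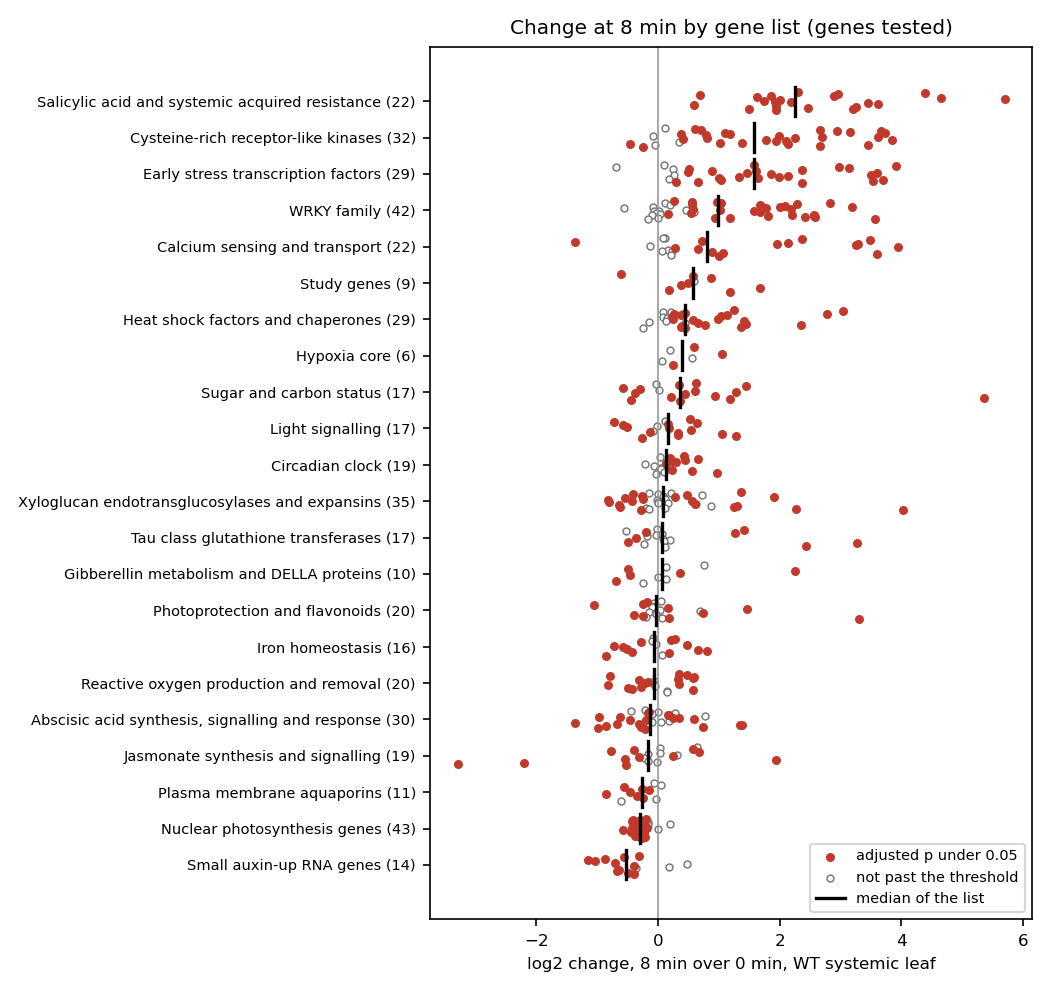
Log2 change at 8 min over 0 min in WT systemic leaves for the tested members of the gene lists; each point is a gene (filled where the adjusted p is under 0.05, open where not) and the bar marks the median. The salicylic acid genes have the highest median (2.25), with all 22 above 0, and the small auxin-up RNA genes the lowest (-0.52).

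Jasmonate genes did not rise together. Of 19 tested, 4 were raised (21.1%) and 7 lowered (36.8%), against 21.8% and 22.6% of all genes. After rescaling 5 were raised and 6 lowered. VSP1, a vegetative storage protein and standard jasmonate marker, had 8.27, 7.40 and 9.31 counts at 8 min, against 79.6, 108.1 and 85.1 at 0 min (log2 change -3.29 ± 0.28), and VSP2 had 41.4, 55.0 and 45.7 counts at 8 min, against 153.8, 259.4 and 267.6 at 0 min (-2.20 ± 0.21). AOC3, an allene oxide cyclase of jasmonate synthesis, had 36.8, 39.1 and 38.1 counts at 8 min, against 15.1, 12.8 and 3.82 at 0 min (1.93 ± 0.37). LOX2, the abundant plastid lipoxygenase that feeds this synthesis, had 5516, 5284 and 5561 counts at 8 min, against 6937, 5723 and 5767 at 0 min (-0.17 ± 0.07), which was not past the threshold.

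Abscisic acid genes were also mixed, with 8 of 30 raised (26.7%) and 13 lowered (43.3%), against 21.8% and 22.6% of all genes. After rescaling 9 were raised and 8 lowered. CYP707A3, which degrades the hormone, had 148, 178 and 147 counts at 8 min, against 52.7, 67.8 and 63.1 at 0 min (log2 change 1.35 ± 0.18). LTI65, a dehydration-responsive protein, was raised by 1.38 ± 0.33 on the log2 scale from few counts. Cold- and dehydration-responsive COR15A had 2516, 2400 and 2419 counts at 8 min, against 4382, 4973 and 4992 at 0 min (-0.97 ± 0.06), and KIN1 had 21.1, 29.6 and 23.7 counts at 8 min, against 55.9, 68.8 and 70.7 at 0 min (-1.36 ± 0.20). ABA1, zeaxanthin epoxidase and the list's most abundant member, fell by 0.21 on the log2 scale, a call that was lost after rescaling (-0.08).

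Small auxin-up RNA genes and aquaporins had falls and no rises. Of 14 small auxin-up RNA genes, which auxin induces in expanding cells, 11 were lowered and none raised (9 and 0 after rescaling), with a median log2 change of -0.52. SAUR20 had 243, 248 and 256 counts at 8 min, against 377, 373 and 415 at 0 min (-0.64 ± 0.10). Of 11 plasma membrane aquaporins, 7 were lowered and none raised (6 and 0 after rescaling). PIP2;5, a water channel, had 122.3, 116.4 and 98.2 counts at 8 min, against 199, 209 and 203 at 0 min (-0.86 ± 0.12). PIP1B, the most abundant one, had a log2 change of -0.16 ± 0.06 that was lost after rescaling (-0.03). In gibberellin metabolism GA2OX2, a 2-oxidase that inactivates the hormone, rose to 95.6, 97.3 and 86.4 counts at 8 min, against 16.1, 20.6 and 20.1 at 0 min (2.24 ± 0.17), while the synthesis gene GA20OX1 had 60.7, 61.3 and 50.8 counts at 8 min, against 105.4, 90.4 and 84.1 at 0 min (-0.69 ± 0.15). Over all 10 tested genes of that list, 2 were raised and 3 lowered (6 and 2 after rescaling), against 21.8% and 22.6% of all genes.

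Of 35 xyloglucan endotransglucosylases and expansins, 10 were raised and 10 lowered (13 and 10 after rescaling), against 21.8% and 22.6% of all genes. Beside TCH4, XTH24 had 2459, 2597 and 2293 counts at 8 min, against 845, 1172 and 989 at 0 min (log2 change 1.30 ± 0.08). EXPA8, an expansin that loosens walls, had 1497, 1454 and 1604 counts at 8 min, against 2941, 2497 and 2606 at 0 min (-0.82 ± 0.06). Of 17 tau class glutathione transferases, enzymes of detoxification, 4 were raised and 3 lowered (7 and 1 after rescaling), beside the same shares over all genes. GSTU4 had 42.3, 45.5 and 32.2 counts at 8 min, against 8.61, 0.983 and 2.87 at 0 min (3.27 ± 0.57, or 3.87 without replicate 1 of 0 min), whereas the abundant GSTU5, its neighbour on chromosome 2, had 7768, 7678 and 7770 counts at 8 min, against 11590, 10460 and 10723 at 0 min (-0.50 ± 0.05).

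Nuclear genes of photosynthesis were lowered in 39 of 43 cases and raised in none (34 and 1 after rescaling), by a median log2 change of -0.29, and none by 2-fold. LHCB2.3, a light-harvesting protein of photosystem II, had 33269, 31360 and 32635 counts at 8 min, against 48833, 49271 and 46592 at 0 min (-0.57 ± 0.07), and its sequence is close to that of other LHCB2 genes. CAB1, the most abundant gene of the list, had 738496, 728690 and 767422 counts at 8 min, against 878266, 816623 and 821902 at 0 min (-0.17 ± 0.11, not past the threshold). All 3 of its 8 min values were below the 0 min values. The mesophyll marker CA1, carbonic anhydrase, had a log2 change of -0.60 and was past the threshold, and RBCS1A, CAB1 and RCA, the other mesophyll markers, were not. For all 4 the 8 min libraries lay below those at 0 min. All 4 were lowered by edgeR, 3 by DESeq2 on recovered reads and 1 after rescaling. None of 4 markers of phloem and vasculature was past the threshold, and of 5 guard cell markers MYB60 alone was (-0.27), a call lost after rescaling. By edgeR 2 guard cell markers were lowered, and by DESeq2 0. Of 3 epidermis and trichome markers, GL2 was raised, with 66.2, 69.8 and 65.2 counts at 8 min, against 32.3, 36.4 and 46.8 at 0 min (0.80), ATML1 was lowered (-0.15, or -0.02 after rescaling) and PDF1 (0.47) was past the threshold after rescaling and by edgeR but not as deposited. The part of cell composition in the gene changes was not tested.

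Light and flavonoid genes included a few strong rises. MYB111, which activates flavonol synthesis, had 209, 234 and 169 counts at 8 min, against 13.99, 24.6 and 21.98 at 0 min (log2 change 3.30 ± 0.33). Of 20 photoprotection and flavonoid genes, 5 were raised and 5 lowered (7 and 4 after rescaling), near the 21.8% and 22.6% of all genes. Rises of at least 2-fold numbered 2 in this list. Of 17 light signalling genes, 9 were raised and 5 lowered (10 and 3 after rescaling). HY5, a bZIP factor that promotes light responses, had 1258, 1290 and 1230 counts at 8 min, against 559, 624 and 637 at 0 min (1.05 ± 0.05), and RUP1, a repressor of the UV-B receptor, had 309.8, 304.6 and 300.6 counts at 8 min, against 111.9, 133.6 and 131.9 at 0 min (1.28 ± 0.09). PIF3, a phytochrome-interacting factor that acts against light responses, had 170.1, 161 and 164 counts at 8 min, against 272, 258 and 292 at 0 min (-0.73 ± 0.09), and PIF4 had a log2 change of -0.51 ± 0.05.

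Clock and iron genes changed by less than 2-fold in these samples, whereas 4 of 17 genes of sugar and carbon status rose by at least that much, against 5.29% of all genes. Of 19 clock genes 10 were raised and none lowered (16 and 0 after rescaling), by a median log2 change of 0.13. TOC1, an evening repressor, had 133, 159 and 176 counts at 8 min, against 93.6, 70.7 and 72.6 at 0 min (0.98 ± 0.13). Among 17 sugar and carbon status genes, 11 were raised and 4 lowered (11 and 2 after rescaling). ASN1, an asparagine synthetase that rises in carbon-starved leaves, had 1131, 967 and 1165 counts at 8 min, against 504, 401 and 436 at 0 min (1.28 ± 0.07), and the sugar transporter STP1 had 1315, 1243 and 1359 counts at 8 min, against 819, 868 and 846 at 0 min (0.63 ± 0.07). Of 16 iron genes 6 were raised and 6 lowered with either scaling, and 3 were raised without replicate 3 of 0 min. bHLH39, a factor that activates iron uptake, had 256, 241 and 276 counts at 8 min, against 169, 152 and 124 at 0 min (0.80 ± 0.11), and BTS, a ligase that restrains the iron response, had 7148, 7103 and 7275 counts at 8 min, against 12289, 11492 and 11708 at 0 min (-0.72 ± 0.04). Of 6 hypoxia genes 3 were raised, against 21.8% of all genes, HB1, a haemoglobin, among them with counts below 20 in every library. By DESeq2 on recovered reads 1 of the 6 was raised.

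The study's own 9 genes, which were chosen on these samples and are no independent evidence of direction, included 7 raised and 1 lowered (8 and 1 after rescaling). WRKY53, a senescence regulator, had 224, 242 and 231 counts at 8 min, against 72.1, 70.7 and 72.6 at 0 min (log2 change 1.68 ± 0.18). AT1G29670, a GDSL-like lipase, had 1886, 1871 and 1893 counts at 8 min, against 2889, 2855 and 2862 at 0 min (-0.61 ± 0.05). MYB30, a regulator of the hypersensitive response, had a log2 change of 0.49 ± 0.09, WRKY48 one of 1.19 ± 0.37 and the GATA factor BME3 one of 0.37 ± 0.05.

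Within systemic leaves, 8 min was set against the earlier times. Of the 18140 genes, 21.5% were higher and 18.5% lower at 8 min than at 4 min, and 28.6% were higher and 21.4% lower than at 2 min (limma). Of the salicylic acid genes, 19 of 22 were higher at 8 than at 4 min and 22 than at 2 min, with none lower. Heat shock factors and chaperones were higher in 23 of 29 genes against 4 min and in 19 against 2 min, with 0 and 2 lower. Some of these genes had been below their 0 min level before. Compared with 0 min, 7 were higher and 12 lower at 2 min, and 6 higher and 7 lower at 4 min. HSP70, the most abundant, had means of 6723, 1882, 5055 and 7367 counts at 0, 2, 4 and 8 min. The photosynthesis genes were lower in 33 of 43 against 4 min and in 31 against 2 min.

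Rises at 8 min had been reached along different courses. For 862 of the 3962 genes raised at 8 min (21.8%), the 4 means rose in the order 0, 2, 4 and 8 min, whereas for 2404 (60.7%) the 4 min mean was below those of both 2 and 8 min. Of these, 1844 also were higher at 8 than at 4 min by the test. PR1 had means of 21.01, 62.8, 203 and 1049 counts at 0, 2, 4 and 8 min, and WRKY70 had 1110, 1351, 2981 and 5070. By contrast TCH4 had means of 101.8, 942, 133 and 1589 counts, PHI-1 13.7, 214, 15.3 and 343 and MYB111 20.2, 148.5, 6.13 and 204, each high at 2 min, near or below the 0 min level at 4 min and high again at 8 min. Means rose in time order in 16 of 22 raised salicylic acid genes and 20 of 26 raised CRKs. The 4 min mean was the lower one in 8 of 10 raised clock genes and 10 of 10 raised cell wall genes, and in 16 of 24 early transcription factors (66.7%) and 9 of 14 calcium genes (64.3%), against the 60.7% over all raised genes. These counts use the same libraries as the changes they describe and are not tests. The 8 min samples had 960 rises and 68 falls of at least 2-fold from 0 min, the 4 min samples 448 (2.47%) and 109 (0.601%), and the 2 min samples 710 (3.91%) and 805 (4.44%). All 3 of these use the same 0 min libraries.

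**Figure D3:**
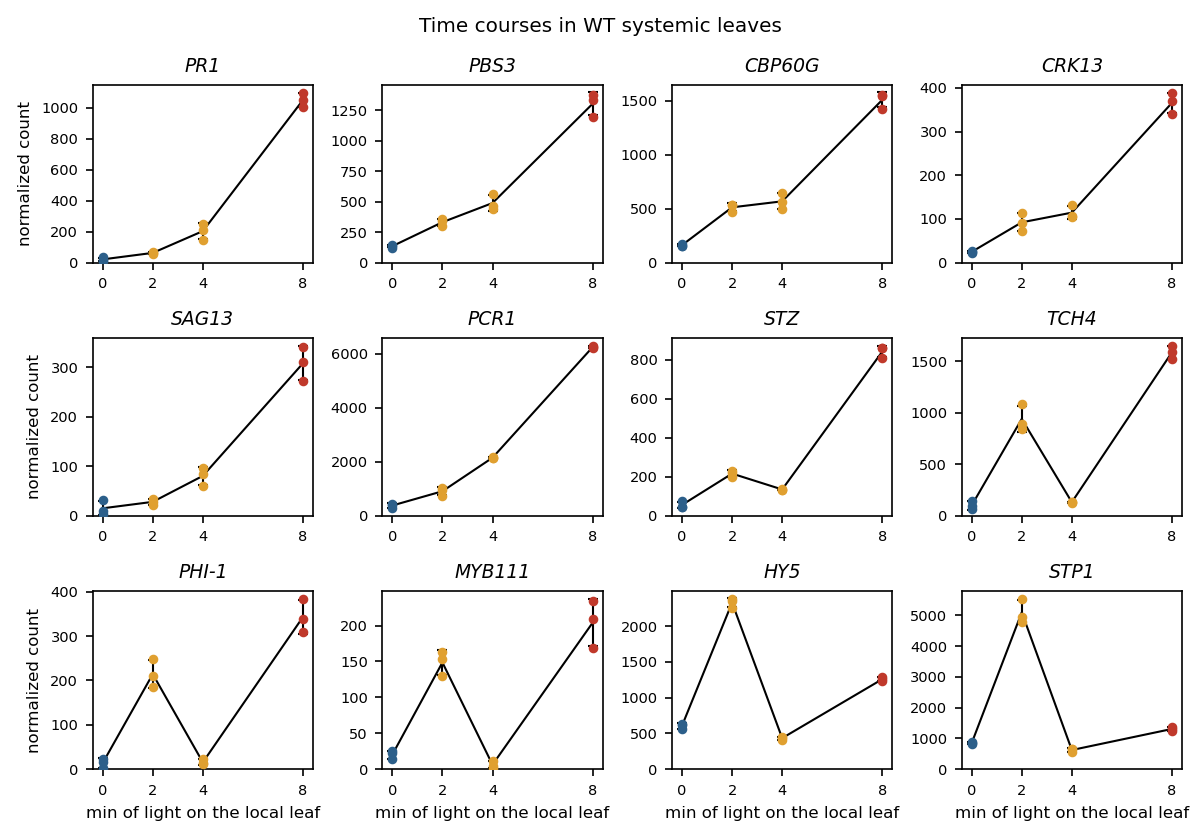
Normalized counts of 12 genes in WT systemic leaves at 0, 2, 4 and 8 min of light on the local leaf; points are the 3 libraries of each time, lines join the means and bars are SD (n = 3). PR1, PBS3, CBP60G, CRK13, SAG13 and PCR1 are highest at 8 min, and TCH4, PHI-1 and MYB111 are high at 2 and 8 min (TCH4 means 942 and 1589, with 133 at 4 min). STZ is low at 4 min by less, and HY5 and STP1 are highest at 2 min.

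The change at 8 min was next compared with that in the illuminated leaves of the same plants, as a difference of changes from each leaf's own 0 min. It was larger in systemic leaves for 8.22% of 17836 genes and smaller for 5.58% (limma). Salicylic acid genes were higher by this measure in 21 of 22 cases, CRKs in 19 of 32 and WRKY factors in 19 of 42, with 0, 0 and 1 lower. Heat shock factors and chaperones were lower in 23 of 29 and higher in 3. Over the 29 genes, the median log2 change was 0.44 in systemic and 3.25 in local leaves. Early transcription factors divided, with 8 higher and 11 lower of 28. No photosynthesis gene differed in either direction by this test, 2 were higher after rescaling, 8 were lower by edgeR and by DESeq2 on recovered reads, and the median log2 changes of these 43 genes were -0.29 in systemic and -0.22 in local leaves.

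Among genes with a mean of at least 50 counts in both tables, PR1 and cwINV6 had the largest positive differences and BAG6 and AT1G59860 the largest negative ones. PR1 had 1052, 1093 and 1002 counts at 8 min, against 12.9, 15.7 and 34.4 at 0 min in systemic leaves, and 1217, 1202 and 1458 counts at 8 min, against 934, 991 and 778 at 0 min in local leaves. The local leaves thus already held high PR1 levels at 0 min, in a table that was normalized separately, and the log2 changes differed by 5.18 ± 0.29. cwINV6 had 151, 157 and 161 counts at 8 min, against 0, 4.91 and 8.60 at 0 min in systemic leaves. In local leaves it had 173, 181 and 195 counts at 8 min, against 75.4, 98.8 and 61.5 at 0 min, and the difference was 4.12 ± 0.58. For both genes the tables lay further apart at 0 min than at 8 min, which was not tested across tables. BAG6, a calmodulin-binding cochaperone of the heat response, had 127.8, 87.8 and 108.4 counts at 8 min, against 52.7, 52.1 and 50.7 at 0 min in systemic leaves. In local leaves it had 19893, 20987 and 20381 counts at 8 min, against 97.0, 68.9 and 78.8 at 0 min, a difference of -6.94 ± 0.17. For AT1G59860, a small heat shock protein, the difference was -6.68 ± 0.14, and its systemic rise of 0.44 ± 0.15 was not past the threshold without either of 2 of the 8 min replicates.

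The same baseline pattern held for the salicylic acid list as a whole. Its summed normalized counts were 33850 to 35531 at 8 min and 7572 to 8319 at 0 min in systemic leaves, and 31329 to 34104 at 8 min and 18282 to 21171 at 0 min in local leaves. At 0 min the local sums were above the systemic ones in all libraries, which was not tested across the separately normalized tables.

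**Figure D4:**
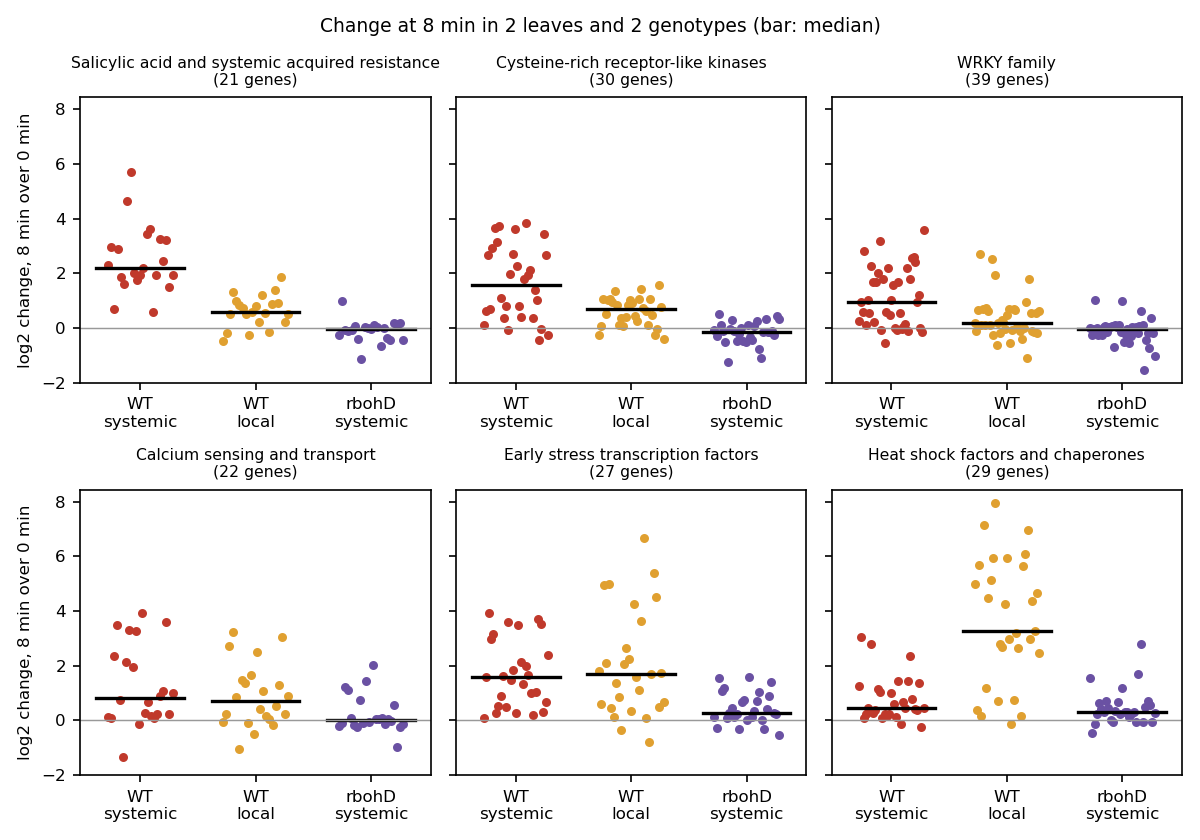
Log2 change at 8 min over 0 min of the genes tested in all 3 tables, for 6 gene lists in WT systemic, WT local and rbohD systemic leaves; each point is a gene and the bar marks the median. Salicylic acid genes have medians of 2.19, 0.59 and -0.04 in these 3 samples, and heat shock genes 0.44, 3.25 and 0.29.

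Against systemic leaves of rbohD plants, a knockout that lacks the oxidase in all tissues and at every time, the change at 8 min in WT was larger for 16.8% of 17545 genes and differed in either direction for 35.7% (limma). Genotype, experiment and table coincide here and cannot be told apart. The salicylic acid genes were higher in WT in 21 of 21 cases, CRKs in 25 of 30, WRKY factors in 24 of 39, early transcription factors in 18 of 28 and calcium genes in 17 of 22, with 0, 2, 0, 1 and 1 lower. In WT and in rbohD the median log2 changes of salicylic acid genes were 2.19 and -0.04, of CRKs 1.58 and -0.13 and of calcium genes 0.81 and -0.00. Lower in WT were 19 of 43 photosynthesis genes (1 higher), 10 of 13 small auxin-up RNA genes and 7 of 11 aquaporins (none higher in either). Heat shock genes were higher in 7 and lower in 1 of 29.

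PCR1 had 6299, 6205 and 6255 counts at 8 min, against 399, 301 and 451 at 0 min in WT. In rbohD it had 299.9, 441 and 291 counts at 8 min, against 517, 538 and 408 at 0 min, and the changes differed by 4.56 ± 0.17 on the log2 scale. AGP5, an arabinogalactan protein of the cell surface, had 348, 414 and 419 counts at 8 min, against 47.3, 32.4 and 39.2 at 0 min in WT. In rbohD it had 37.2, 36.3 and 39.8 counts at 8 min, against 89.1, 73.4 and 71.3 at 0 min, a difference of 4.31 ± 0.21. These 2 genes thus were high in WT at 8 min only, among these 4 groups. FSD1, with 2172, 2369 and 2417 counts at 8 min, against 2523, 5162 and 5385 at 0 min in WT, had 2156, 2379 and 2139 counts at 8 min, against 430.4, 429.8 and 361 at 0 min in rbohD. Its difference of -3.28 ± 0.18 (-3.64 without replicate 1 of WT at 0 min) went with unequal 0 min levels in the 2 tables. ADS1 (AT1G06080) had 96.5, 118.5 and 104.8 counts at 8 min, against 90.0, 98.5 and 133.9 at 0 min in rbohD, and its difference was -2.42 ± 0.27.

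The summed salicylic acid list showed the time course behind these values. It was 7572 to 8319 at 0 min, 9684 to 10200 at 2 min, 16426 to 18506 at 4 min and 33850 to 35531 at 8 min in WT systemic leaves. In rbohD systemic leaves it was 6041 to 6363 at 0 min, 10555 to 12231 at 2 min, 13937 to 14191 at 4 min and 6191 to 6375 at 8 min. The rbohD sums at 8 min overlapped those at 0 min after higher values at 2 and 4 min, while in WT each time lay above the one before it in all 3 libraries. Without PR1, BGL2 and PR5, the WT sums were 22666 to 24286 at 8 min and 5330 to 5787 at 0 min.

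**Figure D5:**
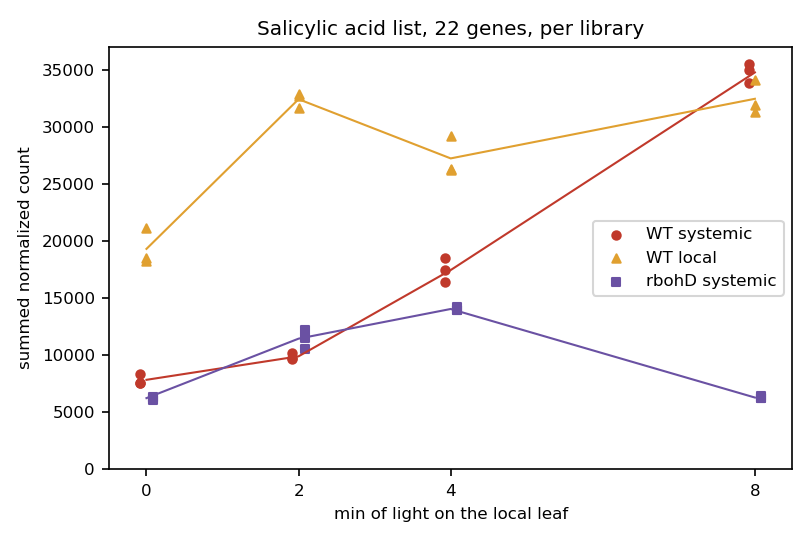
Summed normalized count of the salicylic acid list at 0, 2, 4 and 8 min in WT systemic, WT local and rbohD systemic leaves; points are libraries and lines join the means. The tables were normalized separately; WT systemic leaves reach 33850 to 35531 at 8 min, and rbohD systemic leaves are at 6191 to 6375 then, near their own 0 min values of 6041 to 6363.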

How the data were processed

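Poly(A) RNA of pooled leaves was sequenced from stranded single-end libraries and, per the labels and methods, aligned with STAR (version 2.4.0.1) to TAIR10 after FastQC (version 0.11.7). The counting tool and its use of strand are not given in the sources used here. The authors deposited a signal, gene counts divided by DESeq2 (version 1.20.0) size factors, with each leaf and genotype normalized in its own table of 12 libraries. All values were whole multiples of 1 read (tolerance 0.05), so reads and depth were recovered. Members and gene lists were chosen with earlier results of these data known.

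Groups came from the sample labels. log2(normalized count + 1) was fitted with limma (version 3.58.1, R 4.3.3, mean-variance trend) over the 12 WT systemic libraries, after genes reaching 10 normalized counts in fewer than 3 of them were left out. Tests were two-sided with a Benjamini-Hochberg threshold of 0.05 over all genes tested, and changes of low genes are understated. Differences of changes were fitted over both tables. p-values measure the spread between pools. DESeq2, which the authors used, was an alternative because the deposited unit is not a count. The study's own result columns were not used. Named were the 10 largest rises and falls (mean of at least 50 counts, no overlap of libraries), each list's largest rise, largest fall and highest level, RBOHD, 9 genes of the study and the 2 largest differences in each direction (mean of at least 50 counts in both tables). Other list members are named to describe their list and were chosen after their values were seen.

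RefSeq's TAIR10.1 annotation and genome gave names, positions and promoter windows (250 bases); 99.5% of tested genes matched. Alternatives were a pseudocount of 5, no filter, rescaling, count tests on recovered reads (edgeR version 4.0.16, TMM, and DESeq2 version 1.42.0), a fit restricted to the groups compared, a replicate block, and each library left out. The procedure was tested on simulated data.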

Additional observations from a re-analysis of the deposited data

Results flagged for a closer look

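The changes at 8 min of 8 genes differed between leaves or genotypes by a test of the difference itself (limma interaction, log2 scale). Against WT local leaves these were PR1 (5.18, adjusted p = 4.9e-15), cwINV6 (4.12, adjusted p = 2.2e-06), BAG6 (-6.94, adjusted p = 2.0e-24) and AT1G59860 (-6.68, adjusted p = 6.7e-26). Against rbohD systemic leaves they were PCR1 (4.56, adjusted p = 3.7e-22), AGP5 (4.31, adjusted p = 1.2e-18), FSD1 (-3.28, adjusted p = 5.4e-17) and ADS1 (AT1G06080) (-2.42, adjusted p = 3.1e-09). They were picked as the 2 largest in each direction among genes with a mean of at least 50 counts in both tables, so that genes low in either table were not considered. In the 20 settings run for each, the main one included, all 8 kept their sign and stayed past the threshold. The widest range was that of cwINV6 (3.01 to 4.78, largest adjusted p = 0.00016 over these fits). Unequal levels at 0 min accompany the differences of PR1, cwINV6 and FSD1. Smaller inequalities at 0 min accompany that of AGP5 (mean 39.7 in WT and 77.9 in rbohD systemic leaves). The same holds for BAG6 (51.8 in systemic and 81.6 in local leaves) and AT1G59860 (86.0 and 106.8). The part of these levels in the differences was not tested.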

How the results depend on the processing

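All 77 alternative counts of called genes stayed within 1.5 times the reported ones. Of 3388 alternative counts for the gene lists, 3196 stayed within 1.5 times and 192 did not. With single libraries left out, 7017 to 7429 genes were called for 8 against 0 min, 6174 to 6645 against 4 min, 7965 to 8379 against 2 min, 2016 to 2427 for the difference from local leaves and 5763 to 6024 for that from rbohD. Rescaling each library to one total made raised or higher genes 74.2% of the calls against 0 min (49.1% as deposited), 67.5% against 4 min (53.8%), 84.6% for the difference from local leaves (59.5%) and 62.5% for that from rbohD (47.0%). RGA1, a DELLA protein, had a log2 change of -0.00 as deposited and of 0.12 after rescaling, a change of sign whose cause is the scaling itself. Falls of at least 2-fold numbered 134 without the filter, which tests more genes, instead of 68. Of 1079 alternative values of the named genes, 1045 kept sign and side of the threshold, 14 passed it and 19 lost it. Those that lost it under some setting were ABA1, PAP1 (AT1G56650), PIP1B, HB1, SUS1, WRKY48 and AT1G59860, all weak calls. Deviations of same-numbered replicates from their group means correlated by 0.033, 0.037 and 0.057 between 8 and 0 min, and between systemic and local leaves by 0.042, 0.0068 and 0.069 at 8 min and by 0.084, 0.058 and 0.076 at 0 min. Each WT systemic library at 8 min correlated best with its own number in both checks, for replicate 2 and the local leaf by only 0.0068 against 0.0060. Between 8 and 0 min, same-numbered libraries correlated by -0.027, -0.017 and 0.0017 in WT local leaves. In rbohD systemic leaves these values were 0.040, 0.049 and -0.025. The hint from the WT systemic libraries thus did not hold in every table. Local and systemic leaves came from the same plants, but whether a number marks the same pool of plants is not given in the sources used here, so the pairing remains unsettled. With the replicate number as a block, 8208 genes were called against 0 min, 7437 against 4 min, 9238 against 2 min, 2730 for the difference from local leaves and 6383 for that from rbohD. Depth limits genes with few reads at 0 min, such as FMO1 and CML38, to lower bounds.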

Other observations

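Gene groups read from the RefSeq product names, and chosen after the data had been seen, add to the lists. Intracellular immune receptors of the NBS-LRR classes were raised in 78 of 111 tested genes and lowered in 1 (86 and 1 after rescaling), 25 of them by at least 2-fold, against 21.8% of all tested genes raised and 22.6% lowered (limma). Protein kinases, receptor-like kinases among them, were raised in 182 and lowered in 52 of 412 (227 and 25 after rescaling). Calmodulin-like and EF-hand proteins were raised in 54 and lowered in 5 of 94 (64 and 2 after rescaling). These groups share members with the calcium and CRK lists.

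Ribosomal proteins were lowered in 206 of 305 tested genes and raised in 10, and after rescaling in 108 and 21, with a median log2 change of -0.22 as deposited. Pentatricopeptide repeat proteins, which process organelle RNA, were lowered in 59 and raised in 15 of 236 (31 and 23 after rescaling). For both groups the number lowered thus depended on the scaling. Of the other groups read this way, UDP-glycosyltransferases were raised in 28 and lowered in 13 of 80 (32 and 7 after rescaling). Cytochrome P450 enzymes were raised in 35 and lowered in 20 of 103 (47 and 9). For U-box and RING ubiquitin ligases the counts were 102 and 38 of 361 (165 and 12). Expansin, xyloglucan and pectin enzymes of the cell wall had 30 and 35 of 129 (41 and 27).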
